A study of Homo sapiens with 9 samples.

Results

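The genes described here are 8 neighbours on the long arm of human chromosome 11, in band 11q12: the oocyte-secreted protein genes OOSP4B and OOSP2, and MS4A3, MS4A2, MS4A6A, MS4A4A, MS4A7 and MS4A1 of the membrane-spanning 4A family. They were named as a list of 8 among 20037 protein-coding genes, and were read with the domain borders in a 900 kb interval from 59800001 to 60700000 (GRCh38). The genes were chosen by their covered percents in LmnB1 and mCherry libraries, so those values are a description and are given without a test between the groups. H3K9me3 was profiled by Cut&Run, which releases DNA around an antibody-bound histone mark with a tethered nuclease, in hTERT RPE-1, an established retinal pigment epithelial line immortalised with telomerase. The LmnB1 group held 4 libraries from cells overexpressing lamin B1 fused to mCherry, replicates 1 and 2 of the clonal lines LmnB1_16 and LmnB1_6. The mCherry group held 4 libraries from cells overexpressing mCherry alone, replicates 1 and 2 of the clonal lines mCherry_3 and mCherry_4. All 8 libraries came from cells given doxycycline at 0.05 ug/mL for 24 hours, and any comparison of constructs rests on 2 clones each. Gene expression was not measured in these libraries, so neither the level of lamin B1 nor lineage markers could be checked.

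H3K9me3 is laid down by methyltransferases such as SUV39H1 and SETDB1, is bound by heterochromatin protein HP1, and marks compact, mostly silent chromatin, much of it at the nuclear lamina. Lamin B1 is a filament protein of that lamina. MS4A proteins cross the cell membrane repeatedly, and those described next are made mainly in blood cells, some of them in the same lineage. MS4A1 encodes CD20, the B cell surface protein targeted by rituximab. MS4A2 encodes the beta chain of the high-affinity IgE receptor of mast cells and basophils. MS4A3 is a gene of myeloid progenitors and basophils, and MS4A4A, MS4A6A and MS4A7 are genes of macrophages and related myeloid cells. OOSP2 belongs to a small family named after an oocyte-secreted protein of the mouse, to which OOSP4B is assigned by name.

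The 4 promoters nearest the OOSP side of the cluster are shown first, in chromosomal order, because the domain border fell among them in 3 of the 4 LmnB1 libraries. Each sequence runs 5′ to 3′ from 250 bases before to 50 bases after a start given by RefSeq, on the plus strand (GRCh38.p14), and capitals mark CpG dinucleotides. For MS4A2 the window lies inside the gene body used for coverage, which begins earlier, at 60088259. They lie at chr11:60016931-60017230, chr11:60040159-60040458, chr11:60056415-60056714 and chr11:60088414-60088713.
OOSP4B: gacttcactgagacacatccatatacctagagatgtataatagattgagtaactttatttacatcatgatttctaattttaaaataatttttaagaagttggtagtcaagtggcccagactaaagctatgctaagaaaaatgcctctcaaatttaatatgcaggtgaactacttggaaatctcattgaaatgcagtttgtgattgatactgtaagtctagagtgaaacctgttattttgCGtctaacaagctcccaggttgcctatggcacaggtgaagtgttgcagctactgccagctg
OOSP2: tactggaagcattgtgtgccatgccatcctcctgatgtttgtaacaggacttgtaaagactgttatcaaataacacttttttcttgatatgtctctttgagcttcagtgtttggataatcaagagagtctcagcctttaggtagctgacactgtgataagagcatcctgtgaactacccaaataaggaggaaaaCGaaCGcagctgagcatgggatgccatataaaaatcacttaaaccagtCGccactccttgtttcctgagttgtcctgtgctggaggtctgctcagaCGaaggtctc
MS4A3: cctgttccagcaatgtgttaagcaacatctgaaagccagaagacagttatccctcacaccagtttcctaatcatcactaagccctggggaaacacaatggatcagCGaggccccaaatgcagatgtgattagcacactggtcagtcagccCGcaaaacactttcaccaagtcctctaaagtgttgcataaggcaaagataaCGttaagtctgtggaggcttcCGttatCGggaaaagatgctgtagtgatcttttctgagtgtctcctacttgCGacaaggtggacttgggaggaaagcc
MS4A2: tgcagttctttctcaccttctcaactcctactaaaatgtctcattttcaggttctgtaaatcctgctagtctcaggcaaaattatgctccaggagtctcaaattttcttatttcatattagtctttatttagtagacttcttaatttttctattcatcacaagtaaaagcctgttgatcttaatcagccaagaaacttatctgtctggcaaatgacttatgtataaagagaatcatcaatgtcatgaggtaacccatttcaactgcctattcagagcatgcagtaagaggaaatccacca
The OOSP4B promoter holds 1 CpG and lay inside a listed domain in 0 of 4 LmnB1 libraries and in 4 of 4 mCherry libraries. The OOSP2 promoter, with 4 CpG, was fully inside in 2 LmnB1 and 3 mCherry libraries. The MS4A3 promoter, with 6 CpG, was inside in 2 LmnB1 and 4 mCherry libraries. The MS4A2 promoter, with 0 CpG, was inside in 3 LmnB1 and 4 mCherry libraries, so the number of LmnB1 libraries was lowest at OOSP4B and highest at MS4A2.

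Few CpG is a feature that the choice of genes did not use. RefSeq promoters were found for 7 of the 8 genes (MS4A1 had no entry), 10 promoters in all, because MS4A6A has several. They held between 0 and 6 CpG with a median of 2, and 9 of 10 held at most 5. Over 22199 promoters of protein-coding genes the median was 21, and 21.4% held at most 5. Few CpG was not particular to covered genes: OOSP3, MS4A8 and MS4A18, at 0 in all 8 libraries, held 3, 2 and 2. MS4A10 and the TMEM176 pair, also at 0, held from 9 to 40. Over 22 promoters of the 8 genes and other family genes, 72.7% held at most 5. The GC content of the 10 promoters had a median of 40.2%, against 62.3% over all 22199. The motif GAGGAA, the core of a binding site of the blood cell factor PU.1, was found on either strand in 7 of the 10. It was found in 11 of the 22 promoters of the 8 genes and other family genes, and in 27.9% of all 22199. The 22199 promoters were not matched to these in GC content. The 4 MS4A6A promoters form 2 overlapping pairs and are not all independent, and a match of letters is not a bound site.

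In 7 of the 8 libraries H3K9me3 lay over the cluster as a broad block broken by gaps. Listed domains covered 624 and 588 kb of the 900 kb interval in LmnB1_16 replicates 1 and 2, 457 kb in LmnB1_6 replicate 1 and 104 kb in LmnB1_6 replicate 2. They covered 646 and 649 kb in mCherry_3, and 460 and 375 kb in mCherry_4. The lowest library was thus LmnB1_6 replicate 2, while its replicate lay within the range of the mCherry libraries, and the groups overlapped. The covered share of the interval averaged 49.3 ± 26.4% with LmnB1 (SD, n = 4) and 54.9 ± 15.5% with mCherry (SD, n = 3). Here and below the mCherry_3 pair enters a mean as 1 sample. In its read counts over 229 domains listed with identical coordinates, no difference beyond sampling noise was detected (chi-square per degree of freedom 1.08, p = 0.197). Those domains are a set selected for agreement of borders, from lists of 6115 and 6060 domains. By the same chi-square test the replicates differed in LmnB1_16, with 1.1 per degree of freedom over 648 domains (p = 0.0380). They also differed in LmnB1_6, with a chi-square of 1.73 per degree of freedom over 61 domains (p = 3.7e-04), and in mCherry_4, with 1.67 over 28 domains (p = 0.0162). The excess of LmnB1_16 was thus close to that of mCherry_3, and the choice to merge rests on that test alone. The difference of -5.66 percentage points was smaller than the spread in either group, and without LmnB1_6 replicate 2 it was 6.91 points, with the opposite sign. With the mCherry_3 pair as 2 samples it was -9.92 points. Among 11449 windows of 900 kb with a mean coverage of at least 5%, 11.1% had a difference as low or lower, and the median difference was 4.84 points. The windows were placed every 100 kb and overlap, so they are not separate regions.

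**Figure D1:**
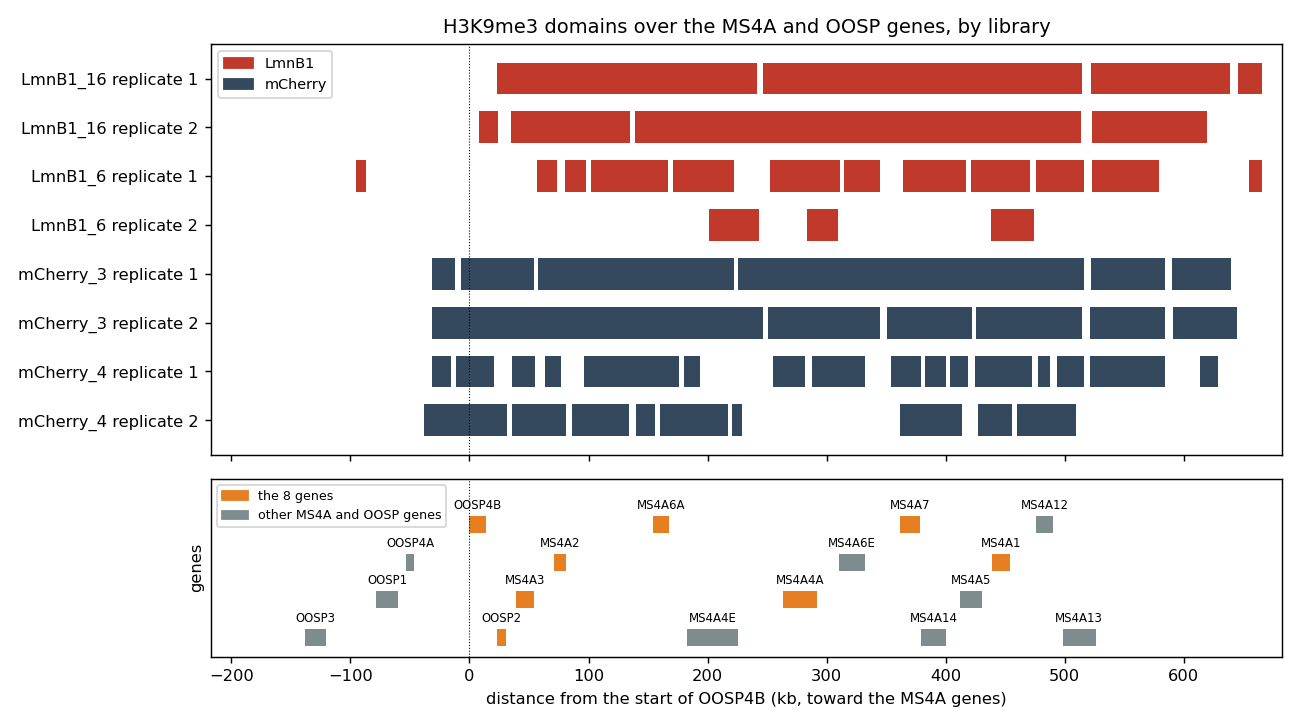
Each bar is a domain of H3K9me3 from the deposited list of 1 library, drawn against the distance in kb from the start of OOSP4B, with LmnB1 libraries above mCherry libraries and the genes at the bottom (the 8 genes in orange, other family members in grey). All 4 mCherry libraries have a domain left of OOSP4B that runs into the gene. In the LmnB1 libraries the first domain of at least 10 kb begins to the right of the gene's start.

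The libraries differed across the whole genome as well. All H3K9me3 domains together covered from 357 to 646 Mb in LmnB1 libraries and from 320 to 529 Mb in mCherry libraries. Sequencing depth relative to the input, inferred from the reads and the log2 enrichment of each listed domain, was 0.880 to 1.01 with LmnB1 and 0.421 to 0.859 with mCherry. The 2 ranges do not overlap, so construct and depth cannot be told apart. Over the 2260 genes with a mean coverage of at least 5%, covered percent averaged 59.5, 51.8, 54.5 and 30.6 in LmnB1_16 replicates 1 and 2 and LmnB1_6 replicates 1 and 2, and 51.3, 52.1, 38.0 and 26.5 in mCherry_3 and mCherry_4 in the same order. Reads are given for listed domains alone, so a gene at 0 may still carry reads below the authors' limit.

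OOSP4B stood at the border of the block and was the gene with the clearest separation. Its body (60017181 to 60031095) was covered over 0, 43.8, 0 and 0% in LmnB1_16 replicates 1 and 2 and LmnB1_6 replicates 1 and 2, and over 100% in each of the 4 mCherry libraries. The 4 LmnB1 values all lay below the 4 mCherry values. The means were 11 ± 21.9% with LmnB1 (SD, n = 4) and 100% with mCherry (n = 3, no spread), a difference of -89.0 points. It was the 1 gene of the 8 with such a separation, while 0.354% of the 2260 genes had all LmnB1 values below and 2.74% all LmnB1 values above. The gene was chosen by these values, so nothing is read from those shares.

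The domains over OOSP4B were among the weakest in their lists. The authors' log2 enrichment over input was 0.64 in LmnB1_16 replicate 2. It was 0.64 and 0.78 in mCherry_3, and 0.71 and 0.62 in mCherry_4, where a domain must exceed 0.6 to be listed. In LmnB1_16 replicate 2, 93.5% of the list had a higher value. In the mCherry lists 92.3, 67.9, 84.9 and 93.9% had a higher value, so in 4 of the 5 libraries with a domain there at least 84.9% of the list was stronger. With domains of log2 at least 0.8, or the highest-scoring 50% of each list, OOSP4B was at 0 in all 8 libraries. With each list reduced to the covered length of the shortest the difference was -33.3 points. The shortest list, that of mCherry_4 replicate 2, was kept whole, so its 100% at OOSP4B was fixed by the setting. No remaining difference between the groups is read from that value.

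The border on the OOSP side lay in different places in the groups. The first domain of at least 10 kb began at 60040001 and 60025001 in LmnB1_16, at 60074001 in LmnB1_6 replicate 1 and at 60218001 in LmnB1_6 replicate 2. It began at 59986001 in both mCherry_3 libraries and in mCherry_4 replicate 1, and at 59979001 in mCherry_4 replicate 2. The mCherry borders thus fell within 7 kb of one another, left of OOSP4B, with the mCherry_3 pair at the same position. The LmnB1 borders were spread over 193 kb, right of the start of OOSP4B. The farthest was that of LmnB1_6 replicate 2, which had 3 separate domains in the interval and no broad block. Log2 enrichment of these first domains was 1.07, 0.64, 0.69 and 0.63 with LmnB1, in the order given. With mCherry it was 0.61, 0.78, 0.76 and 0.62, beside the listing limit of 0.6. Relative to the start of OOSP4B the border averaged 72.1 ± 88.2 kb with LmnB1 (SD, n = 4) and -33.5 ± 4.04 kb with mCherry (SD, n = 3), where positive values lie toward the MS4A genes. LmnB1_6 replicate 1 had a further domain of 8 kb at 59922001 to 59930000, between OOSP3 and OOSP1. In steps of 1 kb, 31 kb of the interval was covered in all 4 mCherry libraries and in 0 LmnB1 libraries. This stretch lay in the runs 59986001 to 60002000 and 60010001 to 60025000. The interval was chosen with these values known and no share over the genome is given, so the border positions and the 31 kb are a description. The reverse, all 4 LmnB1 and 0 mCherry libraries, was found over 0 kb. It had less room, because all 4 LmnB1 libraries jointly covered 80 kb and all 4 mCherry libraries 271 kb. LmnB1_6 replicate 2 covered 104 kb of the interval. With any library of a group counted, 53 kb was covered with mCherry alone and 34 kb with LmnB1 alone.

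**Figure D2:**
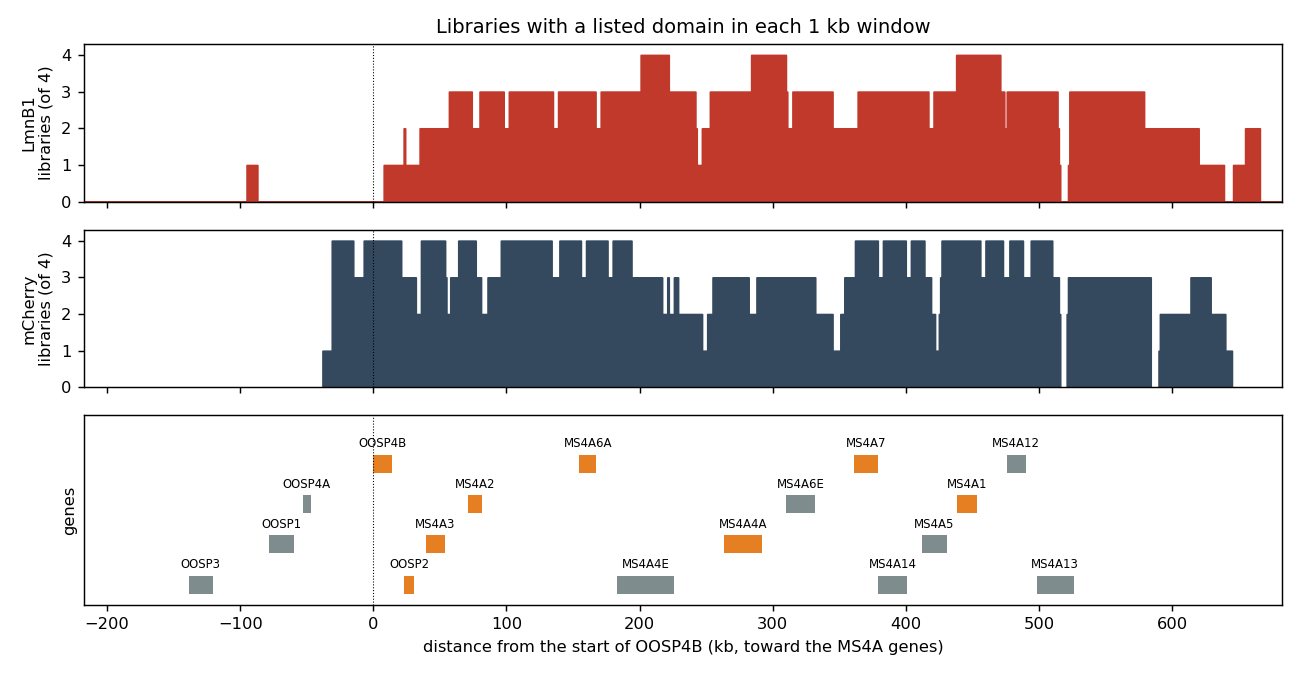
The height in each panel is the number of libraries (of 4) with a listed domain in a 1 kb window, with LmnB1 above mCherry, against the distance in kb from the start of OOSP4B. Over the 2 runs at the left edge with the mCherry profile at 4 and the LmnB1 profile at 0, and in the dip of the mCherry profile between them, no LmnB1 library has a domain, and both profiles are at 4 over MS4A1.

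OOSP2, the next gene toward the MS4A cluster, did not separate the groups. Its body (60040409 to 60048044) was covered over 100 and 7.75% in LmnB1_16 and 0% in both LmnB1_6 libraries. With mCherry it was covered over 100% in 3 libraries and 0% in mCherry_4 replicate 1, which had a gap there. The means were 26.9 ± 48.8% with LmnB1 (SD, n = 4) and 66.7 ± 57.7% with mCherry (SD, n = 3).

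MS4A3, the myeloid progenitor gene, differed by clone. It was covered over 100% in both LmnB1_16 libraries and 0% in both LmnB1_6 libraries, and between 99.2 and 100% in the 4 mCherry libraries. The means were 50 ± 57.7% with LmnB1 (SD, n = 4) and 99.9 ± 0.23% with mCherry (SD, n = 3). The values of LmnB1_16 were thus the same as those of mCherry, and the lower mean with LmnB1 came from LmnB1_6. MS4A2, the IgE receptor gene, was covered over 100% in both LmnB1_16 libraries, 41.2% in LmnB1_6 replicate 1 and 0% in LmnB1_6 replicate 2. With mCherry it was covered over 100% in both mCherry_3 libraries and over 56.2 and 95.4% in mCherry_4, and the groups overlapped. The difference was -23.6 points, and -3.48 points without LmnB1_6 replicate 2.

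The macrophage genes MS4A6A, MS4A4A and MS4A7 were covered in most libraries. MS4A6A was covered over 100, 100, 94.9 and 0% in LmnB1_16 replicates 1 and 2 and LmnB1_6 replicates 1 and 2, and over 100, 100, 100 and 69.4% in mCherry_3 and mCherry_4. Listed in the same order, the covered percent of MS4A7 came to 100, 100, 85.8 and 0 for LmnB1, against 100, 100, 100 and 97.3 for mCherry. In both genes the value at 0 was LmnB1_6 replicate 2. LmnB1_6 replicate 1 lay within the mCherry range at MS4A6A and below all 4 mCherry libraries at MS4A7. Without LmnB1_6 replicate 2 the difference was 8.51 points in MS4A6A, where it was -16.1 with all libraries, and -3.83 points in MS4A7, where it was -27.6. MS4A4A went the other way in its means, at 82.0 ± 35.9% with LmnB1 (SD, n = 4) and 59.6 ± 52.7% with mCherry (SD, n = 3). It was covered over 100% in 3 LmnB1 libraries and 28.2% in LmnB1_6 replicate 2, and over 100, 100, 78.8 and 0% in mCherry_3 and mCherry_4. The value of 0 belonged to mCherry_4 replicate 2, whose list has a gap of 133 kb there, and the difference was -7.36 points without mCherry_4 replicate 2. It was 22.4 points with all libraries and 12.3 points with the mCherry_3 pair as 2 samples.

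MS4A1 was covered over its whole length, 60455847 to 60470752, in all 8 libraries. It was the 1 gene of the 8 at 100% throughout, and LmnB1_6 replicate 2, which left 6 of the 8 genes at 0, covered it with a domain of 36 kb. A total of 29 kb of the interval was covered in all 8 libraries. That stretch lay at 60455001 to 60473000, around MS4A1, and at 60477001 to 60488000, beyond its end. The log2 enrichment of the domains over MS4A1 was 1.16 and 0.96 in the LmnB1_16 pair, and 0.72 and 0.76 in the LmnB1_6 pair. It was 0.88 and 0.87 in the mCherry_3 pair, and 0.84 and 0.67 in the mCherry_4 pair. The groups overlapped in it. Pooled over all domains of a library, log2 enrichment ran from 0.71 to 1.14 with LmnB1 and from 0.72 to 0.89 with mCherry. At a log2 of at least 0.8, in the highest-scoring 50% and at equal covered length, MS4A1 differed by -16.7, 58.3 and -25.0 points, so its uniform coverage rests on the full lists.

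**Figure D3:**
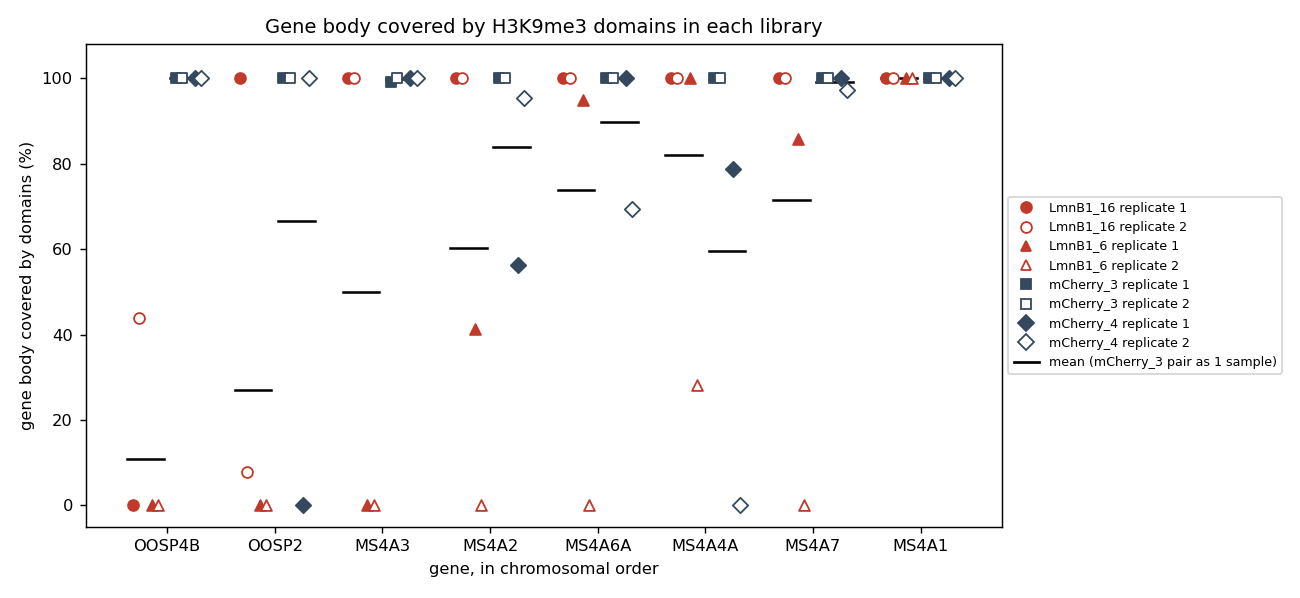
Covered percent of the gene body is plotted for the 8 genes in chromosomal order, with the LmnB1 libraries (red) left of the mCherry libraries (dark blue), a marker per clone, open symbols for replicate 2 and a bar at the mean. The groups are apart at OOSP4B and overlap at the other genes, and all 8 libraries are at 100% at MS4A1.

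Coverage averaged over the 8 genes was 87.5 and 81.4% in the LmnB1_16 pair, and 52.7 and 16% in the LmnB1_6 pair. It was 99.9 and 100% in the mCherry_3 pair, and 79.4 and 82.8% in the mCherry_4 pair. LmnB1_16 replicates thus lay among the mCherry libraries and both LmnB1_6 libraries below them. Against the mean of the 2260 genes in the same library, the 8 genes stood 28.0 and 29.6 points higher in LmnB1_16, and -1.80 and -14.6 points apart in LmnB1_6. They stood 48.6, 47.9, 41.4 and 56.2 points higher in mCherry_3 and mCherry_4. On this scale, which takes out the mean of each library, all 4 LmnB1 values lay below all 4 mCherry values. Before the library mean was taken out, the groups overlapped. The difference of group means was negative in 6 genes, positive in 1 and 0 in MS4A1, with a median of -25.6 points, beside a median of 8.33 points and a negative difference in 23.7% of the 2260 genes. The genes share domains and were chosen by these values, so neither that separation nor the median is independent evidence of a direction.

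The place of the highest enrichment within the block differed between libraries. In LmnB1_6 replicate 1 the domain with the highest log2 value, 1.01, ran from 60381001 to 60434000 over MS4A7, MS4A14 and part of MS4A5. In mCherry_3 replicate 2 the highest, 0.96, ran from 60368001 to 60439000 over the same genes. In mCherry_4 replicate 1 it was a domain of 17 kb inside MS4A14, 60400001 to 60417000, at 1.18, and 4% of that list had a higher value. In LmnB1_16 and mCherry_3 replicate 1 the highest domain was a long one that held these genes among others, and in LmnB1_6 replicate 2 it was that over MS4A1. In mCherry_4 replicate 2 the highest was a domain of 8 kb, 60238001 to 60246000, over the start of MS4A4E, which lies on the minus strand. Over the interval, pooled log2 enrichment was 0.85 ± 0.18 with LmnB1 (SD, n = 4) and 0.75 ± 0.08 with mCherry (SD, n = 3), a difference smaller than the SD with LmnB1. Input reads numbered 8.36 ± 0.22 per kb of covered sequence with LmnB1 (SD, n = 4), and 8.51 ± 0.11 with mCherry (SD, n = 3).

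**Figure D4:**
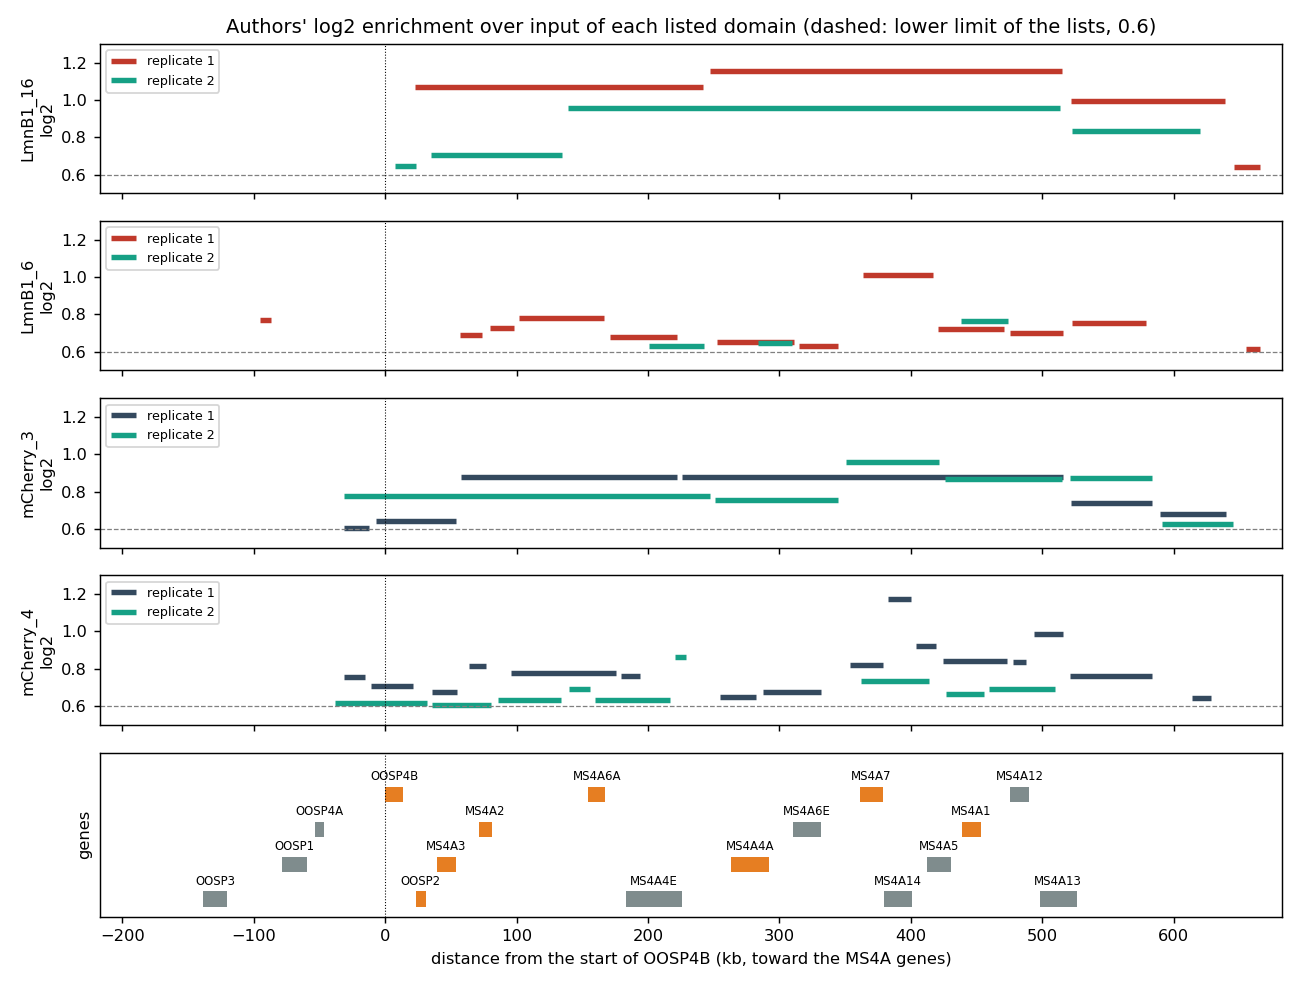
Each line is a listed domain at its log2 enrichment over input, against the distance in kb from the start of OOSP4B, with 1 panel per clone (LmnB1 above mCherry) and a colour per replicate. The first domain of at least 10 kb lies between 0.61 and 0.78 in 7 libraries and at 1.07 in LmnB1_16 replicate 1, where it is 219 kb long.

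A gap was shared by all libraries. The 5 kb from 60533001 to 60538000, inside MS4A13, was in 0 of 8 lists, and in 7 of the 8 libraries a domain ended between 60527000 and 60533000. Domains resumed at 60538001 to 60540001 in 6 libraries, and in LmnB1_6 replicate 2 and mCherry_4 replicate 2 no domain followed it in the interval. The other end of the block varied, the last domain ending between 60491000 and 60683000 with LmnB1 and between 60527000 and 60662000 with mCherry, so the groups overlapped there.

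The remaining family members were split by position. Of 15 other MS4A and OOSP genes, counting the related pair TMEM176A and TMEM176B on chromosome 7, 6 lay in the block and 9 were at 0 in all 8 libraries. Those at 0 were OOSP3, OOSP1 and OOSP4A left of it, MS4A8, MS4A18, MS4A15 and MS4A10 right of it, and the TMEM176 pair. So were STX3, MRPL16, CBLIF (gastric intrinsic factor) and TCN1 (a vitamin B12 binding protein) at the left end of the interval and the olfactory receptor gene OR10V1 before it. In the block, MS4A4E was covered over 87.2 ± 19.6% with LmnB1 (SD, n = 4) and 70.3 ± 39.3% with mCherry (SD, n = 3), and MS4A14 over 75 ± 50% with LmnB1 and 93.3 ± 11.7% with mCherry. MS4A13, whose promoter has 14 CpG, was covered over 54.5 ± 36.5% with LmnB1 and 67.4 ± 22.6% with mCherry, and held the shared gap. Means for MS4A6E, MS4A5 and MS4A12 were 70.4, 69.5 and 74.6% with LmnB1 and 66.6, 61.6 and 89.4% with mCherry.

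These 6 genes could be tested in limma's fit over all 2260 genes, and 0 passed in either direction. Beside them, 0.0885% of the genes were called lower with LmnB1 (2 genes) and 0.221% higher (5 genes). Fitted differences ran from -18.9 points (SE 35.4) in MS4A14 to 14.4 points (SE 26.2) in MS4A4E, with limma adjusted p between 0.946 and 1.0. At an unadjusted p below 0.05, 0 of the 6 were called, beside 68 of all 2260 genes (9 of these lower with LmnB1). With so few called among all genes, 0 of 6 is not a result about these genes. The SE exceeded the size of the difference in each of the 6 genes, so changes of this size could not be detected with these libraries. The 6 genes share domains with the 8 and are not independent of them.

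Genes of the same lineages elsewhere mostly lacked H3K9me3 domains, as did most protein-coding genes: 4140 of 20037 had any coverage. The counts at 0 are thus not particular to these lists. Of 7 B cell genes, 6 were at 0 in all 8 libraries, and PAX5, a B cell transcription factor, was covered over 1.99% with LmnB1 and 7.71% with mCherry. Of 6 mast cell and basophil genes, 4 were at 0 in all 8, while FCER1A, which encodes the alpha chain that pairs with the MS4A2 product, was covered over 100, 100, 90.1 and 0% in LmnB1_16 and LmnB1_6, and over 100, 100, 55.3 and 100% in mCherry_3 and mCherry_4. Like MS4A2, FCER1A was thus at 0 in LmnB1_6 replicate 2 alone. The same held for MS4A6A, MS4A7, MS4A14, MS4A5, MS4A12 and MS4A13, so it is not particular to the IgE receptor genes. Of 11 macrophage and myeloid genes, 10 were at 0 in all 8 libraries. Of 16 oocyte genes, 12 were at 0 in all 8, and NLRP5, a maternal factor, was covered over 53.1% with LmnB1 and 37.0% with mCherry. BMP15, an oocyte growth factor, was covered over 100% in LmnB1_6 replicate 1 and both mCherry_3 libraries, and was at 0 in the other libraries. NOBOX, an oocyte transcription factor, was covered over 100% in both LmnB1_16 libraries alone, and DPPA3 over 58.2% in LmnB1_6 replicate 1 alone. In 0 genes of these lists did all LmnB1 libraries lie below or above all mCherry libraries.

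Genes outside the interval were ranked by how similar their coverage over the 8 libraries was to that of the 8 genes. Measured by the mean absolute difference from the average of the 8 genes, the closest were NKAIN3 (8.16 points), MPPED2 (8.62), ZNF521 (9.56), DCDC1 (9.69) and FHIT (9.89). In LmnB1_6 replicate 2 they were covered over 12.3, 0, 17.6, 19.4 and 26.7%, and in mCherry_3 replicate 1 over 88.1, 100, 97.5, 89.2 and 88.2%. They were picked by a profile that includes LmnB1_6 replicate 2, so their low value there follows from the choice.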

How the data were processed

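Of 9 samples, 8 are H3K9me3 libraries, and the 1 input sample is not used on its own. The authors deposited 1 list of domains per library, without pooling replicates. Per the submitters' processing notes, tools included deepTools, DESeq2, SICER and DiffBind 3.0.15, and the builds named are GRCh38 and hg38, with no roles given. The aligner was not given in the sources used here. The deposited lists give a count of H3K9me3 reads and a count of input reads per domain, a p-value and an adjusted p-value, the log2 enrichment over input, and a score of 100 times that log2 value. In every deposited list the log2 values exceeded 0.6 and starts fell on steps of 1000 bp. Counts exist for listed domains only, so no count model was run.

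From these, the percent of each gene body covered was computed for 20037 RefSeq genes (GRCh38.p14). Genes with a mean of at least 5% entered a limma fit (version 3.58.1, R 4.3.3) with a random clone block. Benjamini-Hochberg adjusted p-values below 0.05 were called. The mCherry_3 pair entered as its mean. The replicates are labelled biological, and p-values treat them as samples of 4 clones. Named were the 8 genes, other family and neighbouring genes, and the 5 genes outside the interval with the most similar coverage. Lineage and oocyte genes with a mean of at least 5% were named too. The members and lists were chosen with earlier results of these data known. Code was tested on simulated data. Alternatives changed the domain threshold, length, gaps, list size, library mean, blocks and libraries. Coverage was computed with numpy 2.4.6 and pandas 2.3.3 under Python 3.11.15, the chi-square test with scipy 1.17.1, and figures with matplotlib 3.10.9.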

Additional observations from a re-analysis of the deposited data

Results flagged for a closer look

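Within the 4 LmnB1 libraries, 9 of 18 values that varied had a library far from the other LmnB1 libraries (Dixon's ratio above its critical value for 4 samples), where chance flags about 1 in 20 groups of continuous values. Covered percents are often tied at 0 or 100, where 1 odd library gives the highest possible ratio, so that rate does not apply to them. In 6 of them it was LmnB1_6 replicate 2, the library with the shortest list of its construct. Its covered percent was 0 in MS4A6A, MS4A7, MS4A14, MS4A12 and MS4A13, and 28.2 in MS4A4A, where the other LmnB1 libraries had at least 67.9%. LmnB1_16 replicate 2 stood apart at OOSP4B, with 43.8% against 0 in the other LmnB1 libraries. LmnB1_16 replicate 1 stood apart at OOSP2, with 100% against at most 7.75%. LmnB1_6 replicate 1 stood apart in the number of domains in the interval, with 12 against 3 or 4. These values share domains and libraries, and they are not independent.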

How the results depend on the processing

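Over all genes, 5 were higher and 2 lower with LmnB1 in limma. The counts were 2 and 0 with domains of log2 at least 0.8, and 3 and 1 when each list kept its highest-scoring 50%. With each library's mean subtracted, 3 were higher and 2 lower. With 1 library left out, the higher count ran from 2 (without mCherry_4 replicate 1) to 59 (without LmnB1_6 replicate 2), and was 9 without either mCherry_3 replicate. The lower count ran from 1 (without mCherry_4 replicate 1) to 7 (without mCherry_4 replicate 2), and was 5 without LmnB1_16 replicate 1. With the replicate number as a block, 5 were higher and 2 lower. The numbers do not pair the samples: correlations of replicate deviations between clones ran from -0.0257 to 0.0939. The calls among the other MS4A and OOSP genes were 0 in every alternative.

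The separation at OOSP4B, 1 gene of the 8, ended (0 genes) with domains of log2 at least 0.8, in the highest-scoring 50% and at equal covered length. It held in each leave-one-out analysis, with an OOSP4B difference from -100 to -85.4 points. The interval's difference ran from -12.4 to 6.91 points with 1 library left out, and was 13.0 points at a log2 of at least 0.8 and 5.22 in the highest-scoring 50%. It was -9.92 points with the mCherry_3 pair as 2 samples, -9.76 at equal covered length (where the list of mCherry_4 replicate 2 stayed whole) and -16.1 with the library mean subtracted. Its sign thus depends on the threshold and on LmnB1_6 replicate 2, and the cause was not tested. Enrichment near the listing limit and unequal depth limit what the lists show at the border.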
